A study of Mus musculus with 2 samples.

Results

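The 10 genes described here are those through which an endothelial cell receives a canonical Wnt signal: Rspo3, Fzd4, Fzd6, Lrp5, Lrp6, Adgra2, Reck, Ctnnb1, Tcf7l1 and Tcf7l2. They were taken by symbol from the 27514 genes of a single-cell count matrix, and each symbol matched 1 row. All 10 had UMIs (unique molecular identifiers, each standing for 1 captured RNA molecule) in both libraries.

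The study asked which step of blood formation from arterial endothelium is affected when the zinc finger transcription factor SP3 is lost. Embryos at E10.5 came from matings of Sp3+/- females with Sp3+/- males on a C57Bl6/J x B6129SF1/J background, and the dorsal aorta region of embryos of like genotype was pooled. Endothelial cells were isolated by sorting as Ter119-negative, CD41-low or CD41-negative cells with CD31, CD144 and ESAM on the surface. One 10x 3′ library was made from the WT pool (4451 cells, 79456081 UMIs) and 1 from the SP3-null pool (3954 cells, 71154918 UMIs), with no number of embryos per pool stated. The SP3-null embryos carry the null allele on both Sp3 copies in the germline, so the loss is not limited to endothelium, and WT embryos came from matings of the same kind.

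The authors' table assigns every cell to a class on the path from endothelium to blood. Arterial endothelium (AE) and venous endothelium (VE) are each split into a Wnt-high and a Wnt-low class by Wnt target genes. AE leads to conflux AE, on which the Wnt-high and Wnt-low arterial cells converge. Next come pre-HE, the stage just before hemogenic endothelium (HE), then HE itself and the intra-aortic clusters of blood cells that bud from it (IAC). A last class holds other endothelium. The AE classes of the deposited table hold more cells, 939 WT and 922 SP3-null, than the arterial population the study lists, and the deposited classes were used as they stand. Because classes were assigned from the RNA of these same cells, differences between classes are descriptions. With 1 library per genotype no test between genotypes was possible, so that genotype, pool and library cannot be told apart, and all intervals are 95% intervals for counting error only. They treat UMIs as independent, which makes them too narrow where a few cells hold most UMIs of a gene.

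The sorted cells carried their labelled markers. Summed over the 6 endothelial classes (Wnt-high and Wnt-low AE and VE, conflux AE and pre-HE, called the endothelial sum below), Cdh5 (VE-cadherin) stood at 671 CPM (UMIs of the gene per 1000000 UMIs of the class) in the WT and 644 in the SP3-null library. The 8 mesenchyme markers summed to 2.68 and 3.83 CPM there, with 1 and 0 of them at 0 UMIs. Sp3 itself gave 46.3 CPM in the WT and 35.6 in the SP3-null library, a log2 ratio of -0.38 (-0.48 to -0.28), and was lower in 9 of 9 classes. Reads from the 3′ end do not show whether a transcript carries the mutation. The libraries shared 5 cell barcodes, and doublets were not called.

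In canonical Wnt signaling a Wnt protein bridges a Frizzled receptor and the co-receptor LRP5 or LRP6, which stops the destruction of β-catenin. β-catenin then enters the nucleus, binds TCF/LEF factors and switches on target genes. R-spondins add to the signal by binding LGR receptors and removing the ubiquitin ligases ZNRF3 and RNF43, which otherwise clear Frizzled from the surface. In endothelium FZD4 is the receptor for norrin, and ADGRA2 (GPR124) with RECK forms the complex that lets brain vessels answer WNT7 ligands.

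In the GRCm38.p6 annotation of RefSeq the members are spread over 8 chromosomes. Rspo3 lies at chr10:29453106-29535867, Fzd4 at chr7:89404366-89410110 and Fzd6 at chr15:39006149-39038192. Lrp5 lies at chr19:3584825-3686585, Lrp6 at chr6:134446476-134566913, Adgra2 at chr8:27085520-27123436 and Reck at chr4:43875521-43944806. Ctnnb1 lies at chr9:120933400-120960507, Tcf7l1 at chr6:72626371-72789045 and Tcf7l2 at chr19:55741797-55933659.

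SP factors bind GC boxes, so the 250 bases before the RefSeq start of members were searched for GGGCGG on both strands (CCGCCC on the printed strand), with overlapping matches counted. Windows were matched for 5 of the 10 members, namely Fzd4, Tcf7l2, Tcf7l1, Ctnnb1 and Reck. Of all 32851 windows of this length, 32.7% held a GC box. The Fzd4 window (chr7:89404116-89404365, plus strand) held 7 matches and that of Tcf7l2 (chr19:55741560-55741809, plus strand) held 6. The Ctnnb1 window (chr9:120933150-120933399, plus strand) held 3, and those of Tcf7l1 and Reck 2 each. A window at a second Ctnnb1 start held 2, and one at a second Tcf7l2 start none. A form of the TCF core, CTTTGA, searched on both strands and found in 13.8% of all windows, was in none of the windows searched. Forms of the core that end in another base were not searched, so this does not show that TCF cores are absent. The windows of Fzd4, Tcf7l2 and Ctnnb1 are printed because, of the members with a window, these had the lowest genotype ratio, the highest, and the one nearest 0. Capitals mark GC boxes, the overlapping ones running together, and a match is a description of the sequence and not a bound site.
Fzd4: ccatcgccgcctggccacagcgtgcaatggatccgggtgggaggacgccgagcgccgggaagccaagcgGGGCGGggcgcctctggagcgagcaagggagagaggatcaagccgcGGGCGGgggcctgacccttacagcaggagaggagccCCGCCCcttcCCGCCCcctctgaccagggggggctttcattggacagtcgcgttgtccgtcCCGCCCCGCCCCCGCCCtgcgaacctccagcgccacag
Tcf7l2: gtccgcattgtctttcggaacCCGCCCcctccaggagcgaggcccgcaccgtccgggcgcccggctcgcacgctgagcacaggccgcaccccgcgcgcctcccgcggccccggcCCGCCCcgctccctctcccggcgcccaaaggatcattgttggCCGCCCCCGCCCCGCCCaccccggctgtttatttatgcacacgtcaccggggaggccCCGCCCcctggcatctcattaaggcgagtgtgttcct
Ctnnb1: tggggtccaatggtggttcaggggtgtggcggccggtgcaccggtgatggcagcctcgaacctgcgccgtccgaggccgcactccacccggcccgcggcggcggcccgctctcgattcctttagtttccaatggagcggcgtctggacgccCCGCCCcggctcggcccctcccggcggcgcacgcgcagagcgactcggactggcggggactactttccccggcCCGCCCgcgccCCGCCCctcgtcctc

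**Figure D1:**
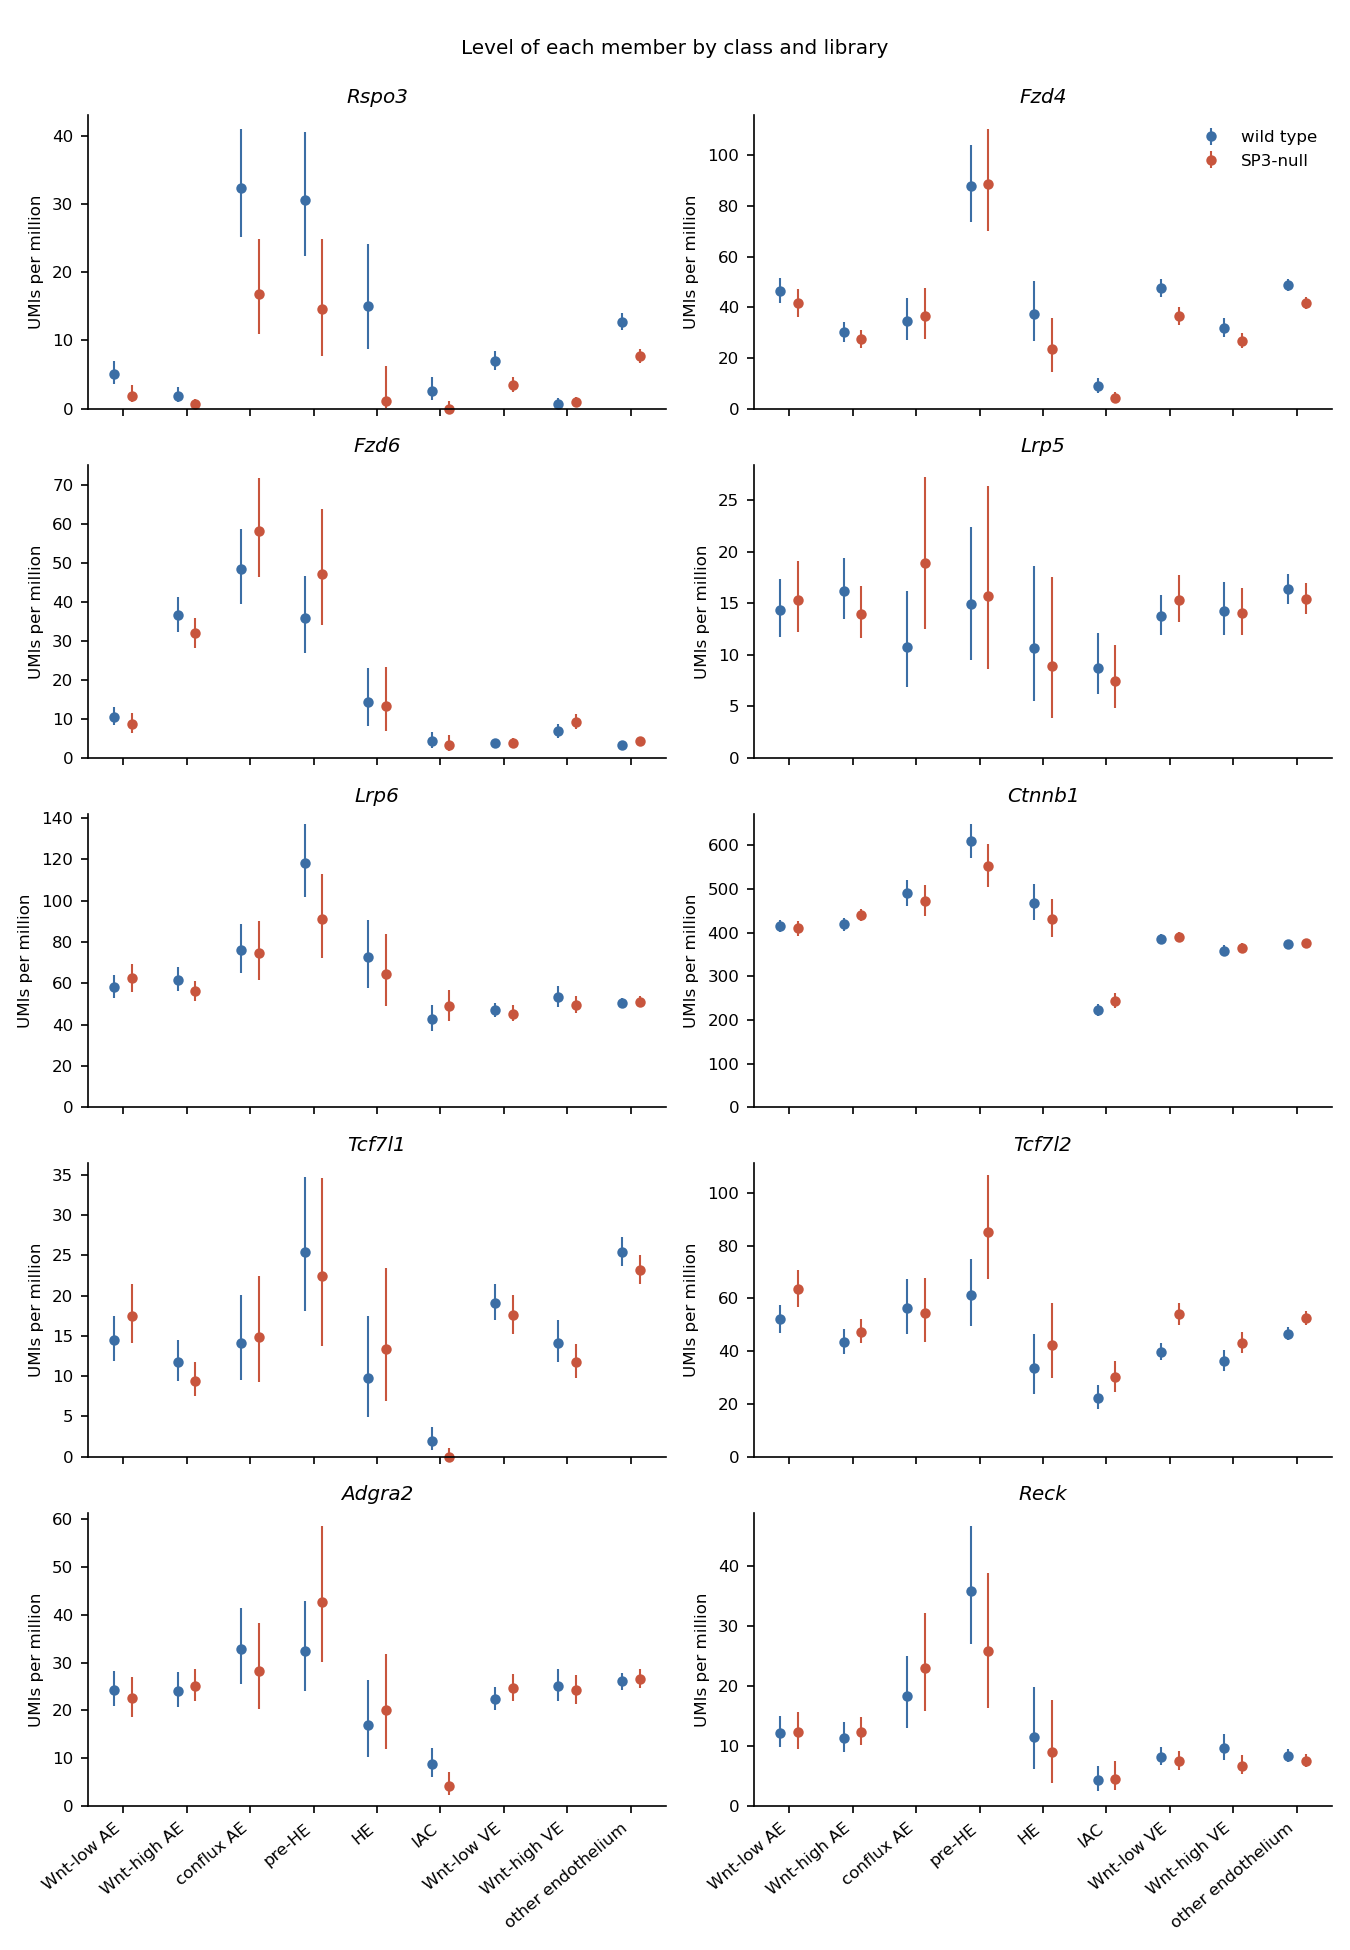
Level of each member (CPM, linear axis from 0, scaled per gene) in the 9 classes, with WT cells in blue, SP3-null cells in red and exact 95% Poisson intervals as bars. Rspo3 was highest in conflux AE, at 32.4 and 16.9, Fzd6 was high in Wnt-high AE, conflux AE and pre-HE, and most members were lowest in IAC.

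Rspo3, the secreted enhancer of the signal, had its highest levels in conflux AE and pre-HE and was lower in the SP3-null library. In conflux AE it gave 69 UMIs in 188 WT cells, or 32.4 CPM (25.2 to 41.0), and 25 UMIs in 145 SP3-null cells, or 16.9 (10.9 to 24.9). In pre-HE it stood at 30.6 and 14.6, and in WT HE at 15.1 from 17 UMIs. Both libraries thus had their highest Rspo3 level in conflux AE, with pre-HE next.

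The AE, VE and other endothelium classes stood below conflux AE and pre-HE. Other endothelium, the largest class, still held 406 of all 713 WT and 210 of all 316 SP3-null UMIs of Rspo3. Wild-type Wnt-low AE stood at 5.14 CPM, Wnt-high AE at 1.91, Wnt-low VE at 6.99 and Wnt-high VE at 0.692, while other endothelium reached 12.7. The SP3-null values were 1.90, 0.676, 3.39, 0.988 and 7.68 in the same order. In each library only other endothelium and Wnt-low VE were neighbors in the order of classes whose intervals did not overlap. Conflux AE and pre-HE together exceeded AE by a log2 ratio of 3.16 (2.68 to 3.66) in the WT and 3.82 (2.95 to 4.76) in the SP3-null library.

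Only some cells of a class carried Rspo3 RNA. At full depth 37 of 188 WT conflux AE cells had a UMI, or 19.7% (14.3% to 26.1%), against 13 of 145 SP3-null cells, or 8.97% (4.86% to 14.8%). Median depth was similar, at 9248.5 and 8850 UMIs per cell. Cells with fewer than 5000 UMIs were left out of thinning, which kept 140 of 188 WT and 106 of 145 SP3-null conflux AE cells. Thinned to 5000 UMIs, these cells had shares of 15.7% (10.1% to 22.8%) and 5.66% (2.11% to 11.9%). Thinned pre-HE stood at 14.7% and 8.11%, Wnt-low VE at 3.99% and 1.70%, and other endothelium at 6.28% and 3.32%. The lowest thinned WT share was 0.471% in Wnt-high VE, a class of the same library whose cells were deeper, with a median of 14475.5 UMIs and an unthinned share of 1.18%. Blood cells of the IAC class had thinned shares of 0.794% and 0%.

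**Figure D2:**
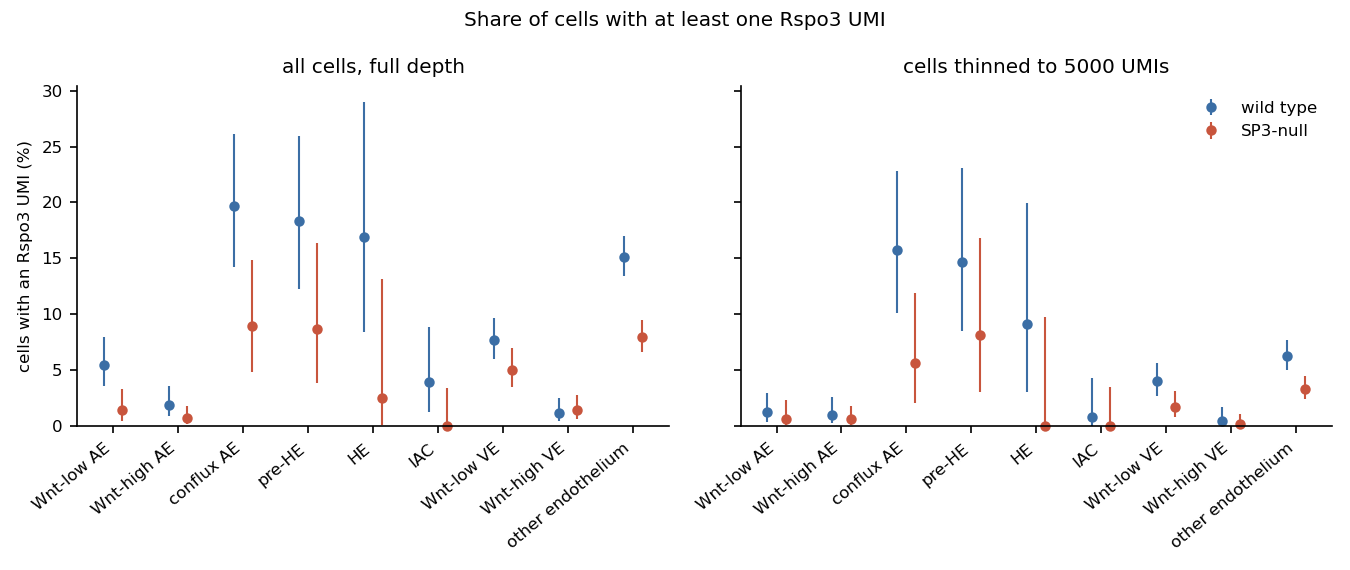
Percent of cells with at least 1 Rspo3 UMI in each class, WT in blue and SP3-null in red, with exact 95% binomial intervals. The left side shows all cells at full depth. The right side shows cells with at least 5000 UMIs, each thinned to 5000. In conflux AE the thinned share was 15.7% in the WT and 5.66% in the SP3-null library.

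The Rspo3-positive cells carried endothelial markers, but in conflux AE and pre-HE at a lower sum than the cells without. In WT conflux AE the 37 cells with Rspo3 summed to 3743 CPM (3583 to 3908) over 6 endothelial markers. The 151 cells without stood at 4183 (4083 to 4285). Positive cells held no UMI of 8 mesenchyme markers (upper limit 6.70 CPM), where negative cells stood at 2.53 (0.69 to 6.49), so these intervals overlap. In SP3-null conflux AE the 13 positive cells stood at 3562 for endothelial markers, against 4064 in negative cells. For mesenchyme markers these positive cells stood at 6.35 (0.16 to 35.4) and the negative cells at 9.05 (4.68 to 15.8), again with overlapping intervals. Positive cells were deeper in the WT, with a median of 13977 UMIs against 7872 in negative cells. In pre-HE the mesenchyme sum was 14.9 CPM in WT cells with Rspo3, with an interval of 5.99 to 30.7, and the interval in those without was 20.5 to 42.3. The endothelial sum of WT pre-HE was 3250 (3089 to 3417) with Rspo3 and 4384 (4259 to 4511) without. In SP3-null pre-HE it was 3371 (2979 to 3799) and 4548 (4402 to 4697). The 3 cells with the most Rspo3 held 27.5% of its UMIs in WT and 52.0% in SP3-null conflux AE.

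Across the endothelial sum, Rspo3 gave 279 UMIs in the WT and 105 in the SP3-null library, a log2 ratio of -1.32 (-1.65 to -0.99). It was the only member past a log2 ratio of 0.5 in either direction, where of 10146 genes with at least 200 UMIs 2.71% were lower and 1.03% higher by as much. Just 0.0690% of these genes had a lower ratio. Within classes the ratio was -0.94 (-1.66 to -0.26) in conflux AE, -1.07 (-2.08 to -0.16) in pre-HE, -1.04 (-1.60 to -0.50) in Wnt-low VE and -0.73 (-0.97 to -0.48) in other endothelium. It was below 0, with the whole interval below 0, in 7 of the 8 classes that allowed a ratio, and at 0.51 (-1.05 to 2.23) in Wnt-high VE, from 6 and 11 UMIs.

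In HE 17 UMIs stood against 1, a log2 ratio of -3.76 whose interval (-9.14 to -1.08) is wide because the SP3-null count is below a floor of 3 counts. In IAC 11 UMIs stood against 0, a log2 interval whose upper end is -1.05, and the WT level was 3.03-fold the same floor. These counts rest on few cells. In WT IAC 1 of the 5 cells with Rspo3 held 7 of the 11 UMIs, and after thinning 1 UMI stood against 0. In WT HE 3 cells held 10 of the 17 UMIs. Thinning left the ratio of the endothelial sum at -1.29, and leaving out the 3 cells with the most Rspo3 in each library gave -1.45. In AE, with 52 and 16 UMIs, it went from -1.64 to -0.61 on thinning.

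Other measures moved with these classes. Xist, expressed from the inactive X of female cells, had a log2 ratio of 0.96 in conflux AE and of 0.42 in both pre-HE and Wnt-high AE, but of -1.17 in HE and -0.75 in IAC. The mesenchyme markers summed to 1.88 and 8.76 CPM in conflux AE and to 25.4 and 34.8 in pre-HE, higher in the SP3-null library where Rspo3 was lower. The neural marker list was lower there, at 610 and 467 CPM in conflux AE, 840 and 523 in pre-HE and 120 and 74.6 in the endothelial sum. Nearly all of it was Stmn2, at -0.69 (-0.76 to -0.63) in the endothelial sum. The part of Xist, of the mesenchyme markers and of the neural list in the Rspo3 difference was not tested. With the 6 endothelial classes weighted alike the ratio was -1.02, and it was -0.77 without cells that carried any marker of another cell type. That filter kept 60.2% of WT and 66.8% of SP3-null cells. With Stmn2, the gene that holds nearly all UMIs of the neural list, not counted, a choice made after seeing the data, 86.8% and 87.8% were kept and the ratio was -1.13.

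The Frizzled genes followed different maps. Fzd6 was highest in Wnt-high AE, conflux AE and pre-HE. In the SP3-null library Wnt-low AE was near Wnt-high VE, at 8.72 CPM and 9.25. Wnt-low AE was above Wnt-low VE in both libraries with intervals apart, at 10.5 (8.34 to 13.2) against 3.86 (2.93 to 4.99) in the WT. The SP3-null values were 8.72 (6.39 to 11.6) against 3.73 (2.71 to 5.01). Fzd4 was found in both vessel types, and between Wnt-high and Wnt-low cells Fzd4 and Fzd6 differed in opposite directions.

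Fzd6, a Frizzled also known from planar polarity, stood at 36.6 CPM in WT Wnt-high AE and 10.5 in Wnt-low AE, and at 31.9 and 8.72 in the SP3-null library. The log2 ratio of Wnt-high over Wnt-low AE was 1.79 (1.43 to 2.18) and 1.87 (1.42 to 2.35). In veins it was low, at 6.80 in WT Wnt-high VE and 3.86 in Wnt-low VE, and at 9.25 and 3.73 in the SP3-null library. The venous ratios were 0.82 (0.27 to 1.37) and 1.31 (0.79 to 1.85), so that Wnt-high cells were above Wnt-low cells in all 4 comparisons.

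Its highest level was in conflux AE, at 48.4 and 58.0, followed in the WT by Wnt-high AE and then pre-HE at 35.8, and in the SP3-null library by pre-HE at 47.1 and then Wnt-high AE. The intervals of these 3 classes overlapped from each to the next. HE was lower, at 14.2 and 13.4, and IAC stood at 4.27 and 3.44. AE exceeded VE by a log2 ratio of 2.25 (1.94 to 2.57) in the WT and 1.86 (1.57 to 2.15) in the SP3-null library. Thinned to 5000 UMIs, 19.3% of WT Wnt-high AE cells and 22.1% of conflux AE cells carried Fzd6, against 5.33% of Wnt-low AE and 1.59% of IAC cells (unthinned 38.8%, 36.7%, 14.4% and 10.2%, median depths 13401, 9248.5, 13319.5 and 31009 UMIs). Between genotypes the endothelial sum of Fzd6 had a log2 ratio of 0.05 (-0.11 to 0.22). In AE it was -0.02 (-0.24 to 0.21), and in VE 0.38 (0.02 to 0.74), from 117 and 147 UMIs, but -0.18 after thinning.

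Fzd4 stood at 30.2 CPM in WT Wnt-high AE against 46.4 in Wnt-low AE, and at 27.5 against 41.5 in the SP3-null library. The corresponding log2 ratios were -0.62 (-0.87 to -0.37) and -0.60 (-0.86 to -0.33). In veins they were -0.58 (-0.79 to -0.38) and -0.45 (-0.66 to -0.23), so that Fzd4 was lower in Wnt-high cells of both vessels in both libraries. Pre-HE had by far the highest level, 87.8 and 88.7, with its interval above that of every other class in both libraries. IAC had the lowest, 8.78 and 4.02.

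Fzd4 was somewhat lower in the SP3-null library. The endothelial sum stood at 41.9 and 33.6 CPM, a log2 ratio of -0.32 (-0.42 to -0.21), and 6.61% of genes had a lower ratio. The ratio was below 0 in 7 of 9 classes, with the interval below 0 in 4 (Wnt-low VE, Wnt-high VE, other endothelium and IAC). Conflux AE and pre-HE stood at 0.07 (-0.47 to 0.59) and 0.01 (-0.41 to 0.42). With the endothelial classes weighted alike the ratio was -0.11. In the venous classes alone it was -0.39 (-0.53 to -0.25), and in the arterial ones -0.23 (-0.41 to -0.05).

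**Figure D3:**
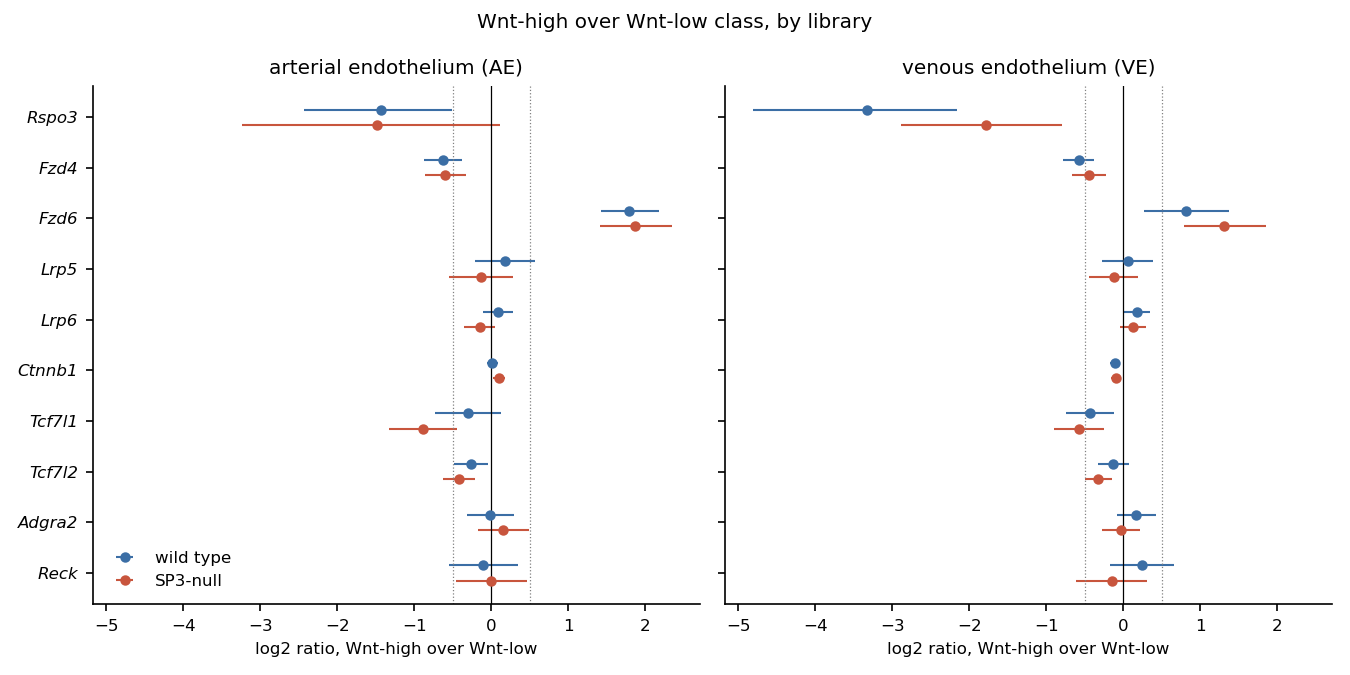
Log2 ratio of Wnt-high over Wnt-low cells for each member in arterial (left) and venous (right) endothelium, WT in blue and SP3-null in red, with exact conditional 95% intervals and dotted lines at 0.5 in either direction. Fzd6 lay to the right in all 4 comparisons, from 0.82 to 1.87, and Fzd4 and Rspo3 lay to the left.

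Read over all members, the Wnt-high and Wnt-low classes differed in few of them. In WT AE 1 of 10 members (Fzd6) was higher and 2 (Rspo3 and Fzd4) lower by a log2 ratio of 0.5, where 10.2% of 9756 genes were higher and 5.07% lower. In SP3-null AE, with 9 members past the minimum of 50 UMIs, Fzd6 was higher and Fzd4 and Tcf7l1 lower, beside 10.8% and 5.80% of all genes. In VE Fzd6 was the 1 higher member in each library, beside 7.11% of WT and 6.71% of SP3-null genes. The 2 lower members were Rspo3 and Fzd4 in the WT and Rspo3 and Tcf7l1 in the SP3-null library, beside 3.65% and 3.74%. Median ratios of the members, from -0.14 to -0.03, lay near those of all genes, from 0.00 to 0.06.

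Rspo3 was lower in Wnt-high cells. Its WT log2 ratio was -1.43 (-2.43 to -0.51) in AE, from 14 and 38 UMIs, and -3.34 (-4.81 to -2.17) in VE, from 6 and 105. The SP3-null ratio in VE was -1.78 (-2.89 to -0.79), and in AE it rested on 6 and 10 UMIs. In the WT library its lowest levels were in these Wnt-high classes, while in the SP3-null library IAC, at 0 UMIs, was lower.

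The LRP co-receptors varied little by vessel. Lrp6, the co-receptor with the broader embryonic role, stood between 42.9 CPM in IAC and 118 in pre-HE in the WT library, and between 45.4 in Wnt-low VE and 90.9 in pre-HE in the SP3-null library. The WT pre-HE interval lay above that of the next class, conflux AE at 76.1. AE exceeded VE by 0.28 (0.15 to 0.41) and 0.30 (0.17 to 0.44) on the log2 scale. Between genotypes the endothelial sum stood at -0.09 (-0.18 to -0.01), and pre-HE at -0.38 (-0.78 to 0.00).

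Lrp5, required for growth of retinal vessels, differed little between neighboring classes. It ranged from 8.78 CPM in IAC to 16.4 in other endothelium in the WT library, and from 7.46 in IAC to 18.9 in conflux AE in the SP3-null library, and no neighbors in either order had intervals apart. IAC was below other endothelium in both libraries with intervals apart, at 8.78 (6.18 to 12.1) against 16.4 in the WT and 7.46 (4.87 to 10.9) against 15.4 in the SP3-null library. Its genotype ratio was 0.05 (-0.11 to 0.22). In conflux AE 23 UMIs stood against 28, a ratio of 0.81 (-0.04 to 1.67) that counting error did not separate from 0.

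Adgra2 and Reck, the partners of the WNT7 complex, had different class patterns. Adgra2 stood between 22.4 and 32.9 CPM in the 7 endothelial classes of the WT library and between 22.6 and 42.6 in those of the SP3-null library, with HE at 16.9 and 20.1 and IAC at 8.78 and 4.30. Its genotype ratio was 0.02 (-0.10 to 0.15), and in IAC, from 37 and 15 UMIs, -1.03 with the interval below 0. Reck, a membrane-anchored inhibitor of metalloproteinases, peaked in pre-HE at 35.8 and 25.8 and stood at 18.3 and 22.9 in conflux AE, against 11.3 and 12.3 in Wnt-high AE. Wnt-low VE was at 8.18 and 7.47. AE exceeded VE in Reck by a log2 ratio of 0.43 (0.13 to 0.73) and 0.79 (0.47 to 1.11). Its genotype ratio was -0.17 (-0.37 to 0.02), with Wnt-high VE at -0.52 (-0.99 to -0.06).

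Over AE and VE as wholes, 1 of 10 members in the WT library (Fzd6) was higher in AE by a log2 ratio of 0.5 and none lower, beside 13.7% and 3.32% of all genes. In the SP3-null library Fzd6 and Reck were higher and Rspo3 lower, at -0.98 (-1.89 to -0.14) from 16 and 51 UMIs, beside 14.1% and 5.91%.

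Ctnnb1, which encodes β-catenin, was counted most deeply, with 17033 and 15919 UMIs in the endothelial sum. It stood at 405 and 404 CPM, a log2 ratio of -0.00 (-0.04 to 0.03), and within classes between -0.14 in pre-HE and 0.13 in IAC. Its level was highest in pre-HE, at 609 and 552, next in conflux AE at 491 and 472, and lowest in IAC at 223 and 244. Wnt-high AE was above Wnt-low AE by 0.02 (-0.06 to 0.09) and 0.10 (0.03 to 0.18), while Wnt-high VE was below Wnt-low VE by small amounts, at -0.11 (-0.17 to -0.04) and -0.09 (-0.15 to -0.03).

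Tcf7l2, a DNA-binding partner of β-catenin, was higher in the SP3-null library. The endothelial sum stood at 43.5 CPM in the WT and 51.5 in the SP3-null library, a log2 ratio of 0.24 (0.15 to 0.34), above that of 95.4% of genes and short of the 0.5 mark. The ratio was above 0 in 8 of 9 classes, with the interval above 0 in 6. It was 0.48 (0.02 to 0.93) in pre-HE, where the level went from 61.2 to 85.3, and 0.44 (0.28 to 0.61) in Wnt-low VE, from 39.8 to 54.1. Conflux AE alone lay below 0, at -0.05 (-0.47 to 0.37). Thinning kept the ratio of the sum at 0.22, but put that of Wnt-high VE, where median depth was 14475.5 UMIs in WT and 19230 in SP3-null cells, at -0.02 and that of HE at -0.20.

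Tcf7l1, known mainly as a repressor of Wnt targets, had a genotype ratio of -0.18 (-0.34 to -0.02), and no single class had an interval apart from 0 among the 8 with a ratio. In IAC 8 UMIs stood against 0, a log2 interval whose upper end is -0.50, and the WT level was 2.20-fold the floor of 3 counts. It was lower in Wnt-high than in Wnt-low cells, at -0.30 (-0.73 to 0.12) and -0.88 (-1.33 to -0.44) in AE and at -0.43 (-0.75 to -0.12) and -0.58 (-0.91 to -0.26) in VE. Other endothelium and pre-HE had its highest levels, 25.4 each in the WT and 23.2 and 22.4 in the SP3-null library.

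**Figure D4:**
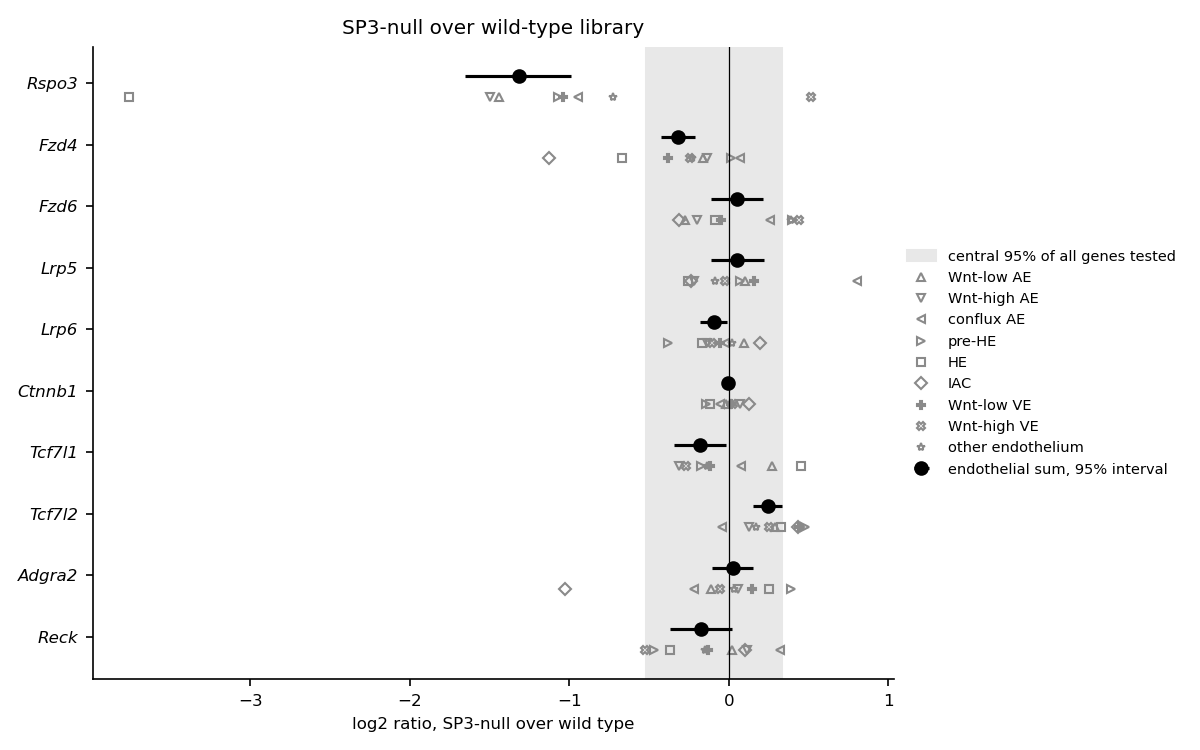
Log2 ratio of the SP3-null over the WT library for each member in the endothelial sum (black, with exact conditional 95% interval) and in each class with at least 10 UMIs and none at 0 (grey, shapes by class). The shaded band holds the central 95% of 10146 genes, and Rspo3 at -1.32 was the member whose sum lay outside it.

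Seen together, the median genotype ratio of the 10 members was -0.05, beside -0.02 over all 10146 genes, with 4 members above 0 and 6 below. Along the path from artery to blood the members moved more. Conflux AE and pre-HE exceeded AE by a log2 ratio of 0.5 in 6 of 10 members in the WT and 5 of 10 in the SP3-null library, beside 16.4% and 18.7% of all genes, and none was lower by as much, beside 12.7% and 12.4%, in a contrast chosen after seeing the class levels. Reck was higher by 1.13 (0.75 to 1.50) and 0.97 (0.51 to 1.40), Fzd6 by 0.87 (0.59 to 1.15) and 1.21 (0.91 to 1.51), and Fzd4 by 0.57 (0.34 to 0.80) and 0.78 (0.49 to 1.06). Lrp6 was higher by 0.64 and 0.47, while Lrp5 stood at -0.28 and 0.29, with both intervals across 0.

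At the last step the members were low. From pre-HE to IAC all 9 members measured in the WT and all 6 in the SP3-null library were lower by at least 0.5. Of all genes 29.5% and 30.5% were lower and 27.3% and 27.7% higher by as much. This contrast was again chosen after the levels were seen, with pre-HE the highest class of several members. Measured meant at least 50 UMIs over both classes, which WT Rspo3 reached mostly through pre-HE, with 11 in IAC and 47 in pre-HE. The counts of members therefore describe the fall and do not test it. Members short of that minimum were lower too, such as SP3-null Reck at -2.49 from 16 and 23 UMIs, and none was higher. The log2 ratio of IAC over pre-HE was -1.45 (-1.58 to -1.32) and -1.18 (-1.34 to -1.02) for Ctnnb1, and -3.32 (-3.89 to -2.79) and -4.46 (-5.40 to -3.63) for Fzd4. HE lay between these classes, at 468 and 432 CPM for Ctnnb1 and at 37.3 and 23.4 for Fzd4, so part of the fall lay before HE. IAC cells were the deepest, with medians of 31009 and 30343 UMIs, but counts of single members there were small, with 11 and 0 UMIs for Rspo3, 8 and 0 for Tcf7l1 and 18 and 12 for Fzd6. The interval of Lrp5, at -0.77 (-1.56 to 0.05) in the WT library, spans 0. IAC also carried macrophage markers, a list of 5 genes that summed to 342 and 395 CPM there, against 1.30 and 2.24 in pre-HE. The part of such cells in the fall was not tested.

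The genes whose levels followed a member most closely were sought over the 18 class by library points, among 10987 genes. Points of a library share its pool and depth, and IAC is low for most members, so r is given also without the IAC points. Fzd6 was followed most closely by Agrn, Jag2 and Pcmtd1, with Pearson r of 0.98, 0.96 and 0.96, and 0.98, 0.96 and 0.97 without IAC. Jag2 encodes a Notch ligand. Lrp6 was followed by Trpm7, Plod3 and Hey2 (0.97, 0.95 and 0.95, and the same without IAC), Hey2 being a Notch target gene. Reck was followed by Laptm4a, Pgap1 and Fgd5 (0.98, 0.97 and 0.97, and 0.97, 0.96 and 0.96 without IAC). Ctnnb1 was followed by Map4k4, Col5a2 and Agpat3 (0.98 each, and 0.95, 0.95 and 0.96).

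For Rspo3 the closest were Asah2, Tgfbr3 and 2200002D01Rik (0.90, 0.89 and 0.88, and 0.89, 0.87 and 0.86 without IAC). For the other members r was lower without IAC in every pair. Tcf7l2 went with Smarca1, Loxl2 and Fam3c (0.94, 0.90 and 0.89, and 0.90, 0.83 and 0.81), and Lrp5 with Stn1, Farp1 and B4galt7 (0.91, 0.91 and 0.90, and 0.84, 0.84 and 0.79). Fzd4 went with Nfib, Rbfox2 and Fnbp1l (0.96, 0.95 and 0.95, and 0.83, 0.87 and 0.89). Tcf7l1 went with Cald1, Rbfox2 and B3gnt5 (0.96, 0.96 and 0.95, and 0.76, 0.62 and 0.73), and Adgra2 with Tead1, Nfib and Rgmb (0.97 each, and 0.87, 0.89 and 0.88). Among the members, Lrp6 and Reck kept r at 0.92 and 0.93, while Fzd4 and Tcf7l1 went from 0.94 to 0.75.

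The rest of the pathway was read from 8 lists with 83 further genes. At a minimum of 50 UMIs, 2.41% of 11814 genes were higher in the SP3-null library by a log2 ratio of 0.5 and 5.17% were lower, around a median of -0.02. Few ligands were made by these cells. Of 20 Wnt and norrin genes 3 were measured, 1 was lower and none higher, with a median of -0.44, or -0.19 with classes weighted alike. Wnt4 gave 53 and 23 UMIs, a ratio of -1.11 (-1.88 to -0.38) and of -2.78 with classes weighted alike, and Wnt5a 64 and 46, a ratio of -0.38 (-0.96 to 0.19). Wnt7a was at 0 UMIs in both sums, Wnt7b at 3 in each and Ndp, which encodes norrin, at 4 and 2, so that known ligands for the Adgra2, Reck and Fzd4 products were close to or at 0. For secretion, Wls stood at 34.2 and 37.2 CPM (0.12, 0.02 to 0.23) and Porcn at 1.43 and 1.80 (0.34, -0.18 to 0.86).

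None of the 10 other receptor genes measured passed the 0.5 mark, with a median of 0.03. Ryk and Fzd10, counted most, had ratios of 0.04 (-0.04 to 0.12) and -0.01 (-0.11 to 0.08), and the ends of the list were Fzd7 at 0.25 (-0.23 to 0.73) and Fzd2 at -0.38 (-0.91 to 0.13). In the R-spondin axis 2 of 8 genes were measured. Lgr4, a receptor for R-spondins, was the 1 gene higher, with 105 UMIs in the WT and 186 in the SP3-null library and a ratio of 0.92 (0.57 to 1.28), 1.02 with classes weighted alike. It was above 0 in 8 of 8 classes that allowed a ratio, with 5 intervals above 0, so that the receptor gene stood higher in the library where Rspo3 stood lower. Znrf3, the ligase gene, gave 277 UMIs in each library, a ratio of 0.09 (-0.15 to 0.34). Rspo1, Rspo2 and Rspo4 gave at most 6 UMIs in a library.

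Of 7 inhibitor genes measured 2 were lower and none higher, with a median of -0.18. Sost gave 359 and 204 UMIs, a ratio of -0.72 (-0.98 to -0.47), but -0.17 with classes weighted alike. Sfrp2 gave 46 and 26 UMIs, a ratio of -0.73 (-1.48 to -0.01) and of -2.13 with classes weighted alike, and Kremen1 and Apcdd1 stood at -0.18 (-0.48 to 0.11) and 0.28 (-0.13 to 0.70). The 10 genes of the destruction complex and dishevelled had a median of -0.01 and none past the mark. Csnk1a1 stood at -0.03, Gsk3b at 0.00 and Btrc at -0.10, and Axin2, which is also a Wnt target, at 0.48 (0.27 to 0.70).

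The 10 nuclear partners had a median of 0.00, with none past the mark. Lef1 and Tle4 stood at 0.26 each, with intervals of 0.19 to 0.32 and 0.16 to 0.35, and Ctnnbip1 and Pygo2 at -0.19 each, with intervals of -0.25 to -0.14 and -0.42 to 0.03. Among 7 target genes 1 was higher and none lower, with a median of 0.26, or 0.11 with classes weighted alike. Nkd1, a feedback inhibitor, stood at 27.7 and 49.1 CPM, a ratio of 0.82 (0.72 to 0.93) that was 0.46 with classes weighted alike, and Ccnd1 at -0.04 (-0.08 to -0.01). Axin2 and Lef1, at 0.48 and 0.26 in the sum, stood at 0.44 and 0.19 with classes weighted alike. Wnt-high cells made up more of the SP3-null sum, with 574 and 566 arterial and venous cells against 467 and 508, and the target list is close to what defined that class. The part of this difference in cell numbers in the target ratios was not tested.

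**Figure D5:**
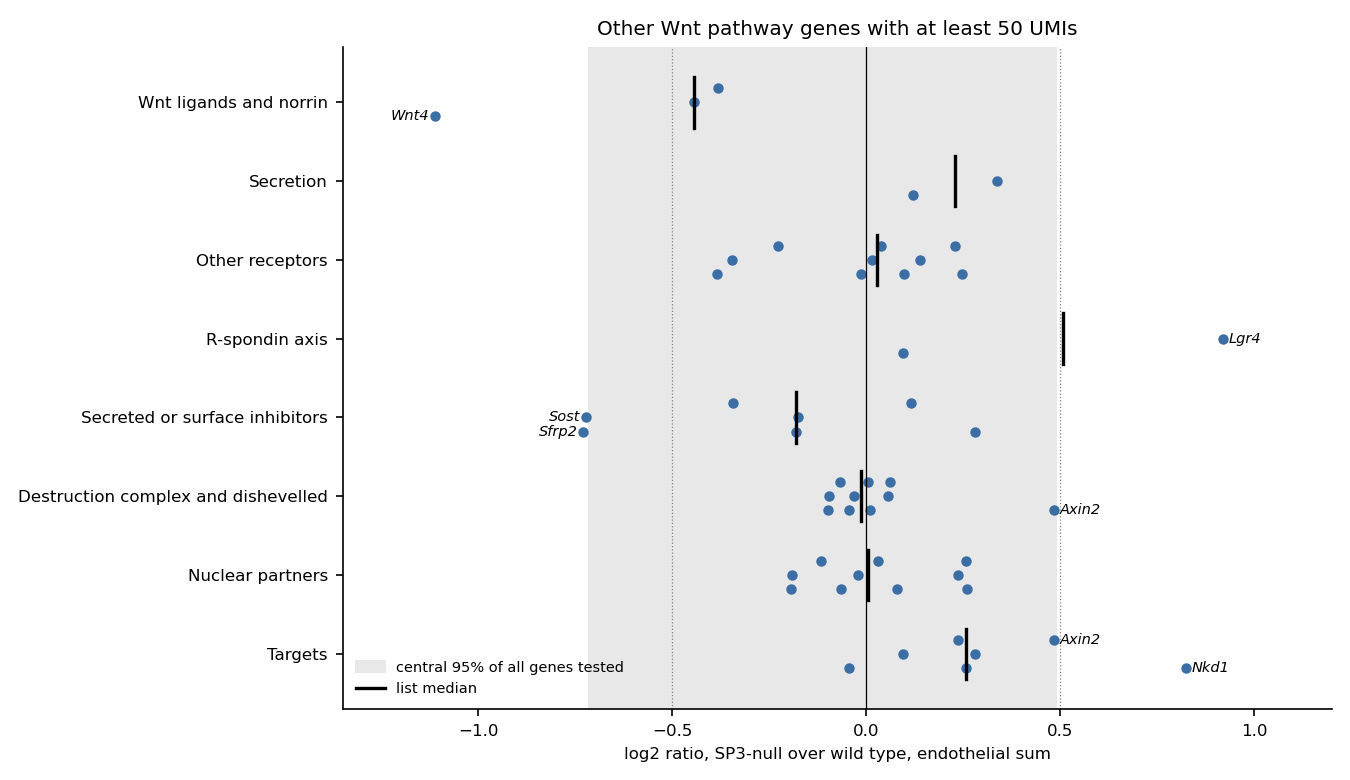
Log2 ratio of the SP3-null over the WT library in the endothelial sum for pathway genes outside the member list with at least 50 UMIs, 1 point per gene, with list medians (black bars) and the central 95% of 11814 genes (shaded). Lgr4 at 0.92 and Nkd1 at 0.82 lay to the right, and Wnt4 at -1.11, Sfrp2 at -0.73 and Sost at -0.72 to the left.

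The 11 target genes summed to 564 CPM in WT and 596 in SP3-null Wnt-high AE. Wnt-low AE stood at 357 and 362, conflux AE at 147 and 212, and pre-HE at 70.9 and 78.6. Most of this sum was Ccnd1, a cell cycle gene, with 12142 of 18530 WT UMIs in the endothelial sum. Unlike Axin2 and Nkd1, Ccnd1 was lower in Wnt-high than in Wnt-low cells, at -0.42 in WT AE and -0.35 in WT VE. The other 10 target genes summed to 348 and 394 CPM in Wnt-high AE, 68.6 and 90.1 in Wnt-low AE, 48.8 and 103 in conflux AE and 28.0 and 42.6 in pre-HE. Pre-HE, where Fzd4, Lrp6 and Reck were highest, was thus below both AE classes with or without Ccnd1. Conflux AE, where Rspo3 was highest, was below both with Ccnd1. Without Ccnd1, SP3-null conflux AE stood at 103 (87.5 to 121) and Wnt-low AE at 90.1 (82.2 to 98.6), with overlapping intervals.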

How the data were processed

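Single-cell RNA-seq of sorted endothelial cells was deposited as a gene-by-cell count matrix with a gene and a cell table. Per the labels and methods, the authors used Cell Ranger (version not given in the sources used here) with GRCm38 (mm10), removed cells with fewer than 1000 UMIs or 1000 genes and contaminating types, and assigned classes from the 3 nearest neighbors on a reference map. The deposited values are raw UMI counts, and the deposited mitochondrial fraction per cell served as a filter. Deposited cell totals exceeded the matrix sums by 0 to 197 UMIs. A class with 1 cell was left out of the class sums. The 2 further per-cell columns (size factor, genes expressed) were not used.

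Counts were summed per class and library and divided by the class total. Levels carry exact Poisson, shares exact Clopper-Pearson and ratios exact conditional 95% intervals, checked on simulated data. Shares were also computed from cells thinned to 5000 UMIs (seed 11), with cells of fewer UMIs left out. Alternatives used edgeR 4.0.16 TMM and DESeq2 1.42.0 size factors for scaling only. Class ratios needed 10 UMIs, class contrasts 50 and genotype ratios 200. Genes named were the members, Sp3, per list the 2 most counted and those with the highest and lowest ratio, and per member the 3 closest by correlation of log2(CPM + 1). Counting barely limits Ctnnb1 but strongly limits Rspo3. Members and lists were chosen with earlier results of these data known. Python 3.11.15, numpy 2.4.6 and scipy 1.17.1 were used.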

Additional observations from a re-analysis of the deposited data

Results flagged for a closer look

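Ctnnb1 was flagged because its Wnt-high over Wnt-low difference pointed one way in arteries and the other way in veins in both libraries. In AE the log2 ratio was 0.0153 (-0.06 to 0.09) in the WT and 0.105 (0.03 to 0.18) in the SP3-null library, and in VE it was -0.107 (-0.17 to -0.04) and -0.0932 (-0.15 to -0.03). The difference between vessels was not tested, and the WT arterial interval spans 0.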

How the results depend on the processing

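No paired analysis was possible because each genotype has 1 library. The median genotype ratio of the members (-0.05) stayed between -0.11 and -0.03 over 15 alternatives. The Rspo3 ratio was below 0 in all 15, from -1.64 in arterial classes alone to -0.77 without cells carrying markers of other cell types, with -0.88 when each cell was weighted alike and -0.97 with other endothelium added. Fzd4, Lrp6 and Tcf7l1 stayed below 0 and Tcf7l2 above 0 in all 15, while Ctnnb1 kept its sign in 8, Adgra2 in 10, Lrp5 in 11, Fzd6 in 13 and Reck in 14. The 105 genes higher by a log2 ratio of 0.5 became 159 with classes weighted alike, 69 without marker-carrying cells, 2354 with no minimum of UMIs, 285 at 50 and 28 at 1000. The 275 lower genes became 171 in arterial classes alone, 170 in venous classes alone, 165 without marker-carrying cells, 3036 with no minimum, 611 at 50 and 57 at 1000, a minimum changing how many genes were tested. The median AE over VE ratio of the members in the SP3-null library, 0.09, was 0.27 after thinning to 5000 UMIs, where the cause was not tested. TMM and DESeq2 scaling moved the median of all genes by 0.0195 and 0.0205. Depth limits Rspo3 in HE and IAC, where 17 UMIs or fewer were counted per library.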

Other observations

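The summed level of genes for secreted or surface Wnt inhibitors was higher in pre-HE and HE than in the other classes. In each of pre-HE and HE, 8 of the 16 genes were at 0 UMIs in the WT and 9 in the SP3-null library. With the endothelial classes weighted alike, Sost (28.1 and 24.9 CPM) and Dkk2 (18.4 and 21.5) had the highest levels of the list. The sum thus does not show that inhibitor genes rose in general. The 16 genes of the list summed to 13.3 and 9.29 CPM in WT and SP3-null Wnt-low AE, 87.3 and 82.3 in conflux AE, 221 and 250 in pre-HE, 267 and 208 in HE and 71.9 and 69.7 in IAC. Wnt ligand RNA was highest in HE, where the ligand list summed to 69.3 (54.8 to 86.5) and 53.6 (39.5 to 71.1). Most of it was Wnt4, with 57 of 78 UMIs in WT and 31 of 48 in SP3-null HE. In pre-HE Wnt4 gave 20 UMIs in 136 WT cells, an interval of 7.95 to 20.1 CPM, and 0 in 92 SP3-null cells, which allows up to 3.37 CPM by a floor of 3 counts.

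Receptor and co-receptor RNA met in few single cells at this depth. After thinning to 5000 UMIs, Fzd4 and Lrp6 were both detected in 5.38% of 2175 WT and 3.95% of 2076 SP3-null cells of the endothelial sum, and in 13.7% of 102 and 13.5% of 74 pre-HE cells. Singly, Fzd4 was detected in 17.9% and 14.7% of the endothelial sum and Lrp6 in 26.6% and 23.7%. In pre-HE the single shares were 30.4% and 29.7% for Fzd4 and 45.1% and 36.5% for Lrp6. Whether joint detection differed from what these single shares give was not tested. Adgra2 and Reck were both detected in 0.920% and 0.819% of the endothelial sum and in 2.94% and 4.05% of pre-HE cells, which are 3 cells in each library.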
